A study of Mus musculus with 20 samples.

Results

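Several genes that normally work in the testis exist beside a relative that every cell uses, and these pairs were followed here across Zmym2 loss. The set held 10 genes, of 25199 genes with counts in at least 1 of the deposited count tables. They were chosen by symbol, with earlier results of these data known. The 6 testis copies were D1Pas1, Rbmxl2, Cyct, Pgk2, Tuba3a and Tuba3b, and the 4 somatic parents were Ddx3x, Rbmx, Cycs and Pgk1. Counts were given for 9 of the 10, and Pgk2 was found only in the RPKM tables. The libraries compared were 6 Zmym2-/- and 6 Zmym2+/+ single whole embryos at E8.5 on a C57BL/6 background, 3 males and 3 females of each genotype, collected with no visible abnormality. The Zmym2- allele carries a CRISPR-Cas9 mutation in the first coding exon. RNA was also sequenced from 2 Zmym2-/- and 2 non-target (NT) samples of V6.5 mouse embryonic stem cells (mESCs) in serum and LIF, and from 2 and 2 of the embryoid bodies (EBs) made from such cells over 3 days. These lines were clones cut with the guide used for the mouse allele or treated with a non-targeting guide, and the labels do not say which clone is in which library.

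In the male germline the X chromosome falls silent during meiosis, so cells that go on to make sperm rely on autosomal copies of X-linked housekeeping genes. D1Pas1 (also called PL10) encodes a DEAD-box RNA helicase like the X-linked Ddx3x, Rbmxl2 encodes a testis RNA-binding protein like the X-linked splicing regulator Rbmx, and Pgk2 encodes the sperm form of the glycolytic enzyme that the X-linked Pgk1 provides elsewhere. These copies arose from reverse-transcribed mRNA. Cyct encodes the testis form of cytochrome c, the electron carrier made from Cycs in other tissues, and Tuba3a and Tuba3b encode near-identical alpha-tubulins of the testis. Such germline genes are silent in the body, where Polycomb complexes that bind E2F and E-box motifs, and DNA methylation, keep them off. ZMYM2 is a zinc finger protein that binds SUMO and is found with repressor complexes.

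The gene models (GENCODE, GRCm38) show how the copies are built. D1Pas1 lies at chr1:186967416-186970627, Rbmxl2 at chr7:107209445-107210916, Cyct at chr2:76353942-76360450, Pgk2 at chr17:40207015-40208640, Tuba3a at chr6:125278274-125286042 and Tuba3b at chr6:145615757-145621479, all protein-coding. Ddx3x, Rbmx and Pgk1 are on the X chromosome and Cycs is on chromosome 6. D1Pas1, Rbmxl2 and Pgk2 each have 1 exon, against 17 in Ddx3x, 9 in Rbmx and 11 in Pgk1, while Cyct has 4 exons and Cycs 3. Over the coding bases that aligned, D1Pas1 was 87.4% identical to Ddx3x, Rbmxl2 70.1% to Rbmx, Cyct 79.4% to Cycs and Pgk2 79.8% to Pgk1. The longest run of bases shared by a copy and its parent was 44 in D1Pas1, 22 in Pgk2, 14 in Cyct and 13 in Rbmxl2, all shorter than the 100-base reads. The stretches around that run are printed here because they bear on whether a read of the parent could be taken for the copy, though they do not settle it. They are coding sequence of GENCODE transcripts, 5′ to 3′, with the bases that differ within the pair in capitals.
D1Pas1 (coding bases 1090 to 1163): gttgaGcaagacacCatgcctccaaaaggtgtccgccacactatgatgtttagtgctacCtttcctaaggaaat
Ddx3x (coding bases 1093 to 1166): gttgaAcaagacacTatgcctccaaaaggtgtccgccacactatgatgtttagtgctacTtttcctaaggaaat
Rbmxl2 (coding bases 101 to 143): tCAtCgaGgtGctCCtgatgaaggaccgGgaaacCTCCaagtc
Rbmx (coding bases 101 to 143): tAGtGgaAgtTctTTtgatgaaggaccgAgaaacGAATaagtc
Cyct (coding bases 142 to 185): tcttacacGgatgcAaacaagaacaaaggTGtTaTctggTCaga
Cycs (coding bases 142 to 185): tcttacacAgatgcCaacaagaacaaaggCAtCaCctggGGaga

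In these stretches D1Pas1 and Ddx3x differed at 3 bases, Rbmxl2 and Rbmx at 12, and Cyct and Cycs at 8. No stretch of 100 bases of the D1Pas1, Rbmxl2, Cyct or Pgk2 transcript occurred in its parent. For D1Pas1, 2.9% of such stretches also lay in Gm37912, an antisense gene that starts inside D1Pas1 and overlaps its start. Among the other members, Tuba3a shared 12.3% of its stretches and Tuba3b 11.8%, mostly with each other, and their coding sequences were 97.0% identical. Of Pgk1, 67.0% occurred in the retrocopy Pgk1-rs7, and of Cycs 24.7% in Gm10053, so counts of these parents could lack reads that matched more than 1 place. Counts given to Pgk1-rs7 stayed between 6 and 40 per library and those given to Gm10053 between 10 and 55. In Zmym2+/+ embryos D1Pas1 counts were 0.0226% to 0.305% of Ddx3x counts. Rbmxl2 stood at 0.177% to 1.09% of Rbmx counts there and Cyct at 0.0556% to 0.140% of Cycs counts.

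The regions before the starts of the copies are shown because 4 of them moved together in the embryo. An E2F-type motif, searched as GCGGGA or its reverse complement TCCCGC, so on both strands, within 250 bases before the RefSeq start, was found in 5 of the 6 copies, in all but Pgk2, and in 0 of the 4 parents. The same letters occurred in 16.9% of 32851 such windows of all genes. The E-box CACGTG occurred before Rbmxl2 alone among the members and in 6.02% of all windows, and the 2 motifs share no base there. The CCAAT box (CCAAT or ATTGG) was also searched. It occurred before every copy but D1Pas1 and every parent but Ddx3x, and in 33.8% of all windows. The sequences are from RefSeq (GRCm38.p6), 5′ to 3′ along the gene, with the E2F-type and E-box motifs in capitals. For Tuba3a and Tuba3b the 30 bases around the motif are given.
D1Pas1 (chr1:186967166-186967415, plus strand): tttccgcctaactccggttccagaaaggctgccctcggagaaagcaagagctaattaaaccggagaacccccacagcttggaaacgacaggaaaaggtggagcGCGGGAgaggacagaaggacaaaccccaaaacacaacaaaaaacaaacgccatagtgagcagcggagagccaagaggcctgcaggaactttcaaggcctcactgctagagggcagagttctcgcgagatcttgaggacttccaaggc
Rbmxl2 (chr7:107209195-107209444, plus strand): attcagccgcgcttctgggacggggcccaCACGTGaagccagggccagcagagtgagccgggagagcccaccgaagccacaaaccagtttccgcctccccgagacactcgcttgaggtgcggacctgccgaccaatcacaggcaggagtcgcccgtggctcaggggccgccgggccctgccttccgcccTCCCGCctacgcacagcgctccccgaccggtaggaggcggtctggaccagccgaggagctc
Cyct (chr2:76360454-76360703, minus strand): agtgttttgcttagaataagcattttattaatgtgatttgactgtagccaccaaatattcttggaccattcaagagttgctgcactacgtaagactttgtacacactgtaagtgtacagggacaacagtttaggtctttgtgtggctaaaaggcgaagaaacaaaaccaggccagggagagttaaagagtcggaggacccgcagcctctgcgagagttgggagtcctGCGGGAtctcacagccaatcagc
Tuba3a (chr6:125286183-125286212, minus strand): actccagagcctTCCCGCcaaagccacatc
Tuba3b (chr6:145615845-145615874, plus strand): actccagagcctTCCCGCcaaatttacatc

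The E2F-type letters began 147 bases before the start of D1Pas1, 61 before Rbmxl2, 23 before Cyct, 119 before Tuba3a and 106 before Tuba3b. In Tuba3b these letters lie before the RefSeq start but inside the GENCODE gene model, which begins further upstream. A match is a description of the letters and says nothing of binding. The region shown before D1Pas1 lies within the antisense gene Gm37912 (chr1:186964528-186967603). Both tubulin genes lie on chromosome 6 and keep the motif, although their levels differed widely in the libraries.

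Libraries held 32016880 to 64057608 counts, and levels are given as CPM, counts scaled to library totals after TMM scaling. Zmym2 itself was measured first. Its CPM in Zmym2-/- embryos had a lowest value of 25.4, a median of 47.7 and a highest of 67.1, against 50.3, 87.9 and 125 in Zmym2+/+ embryos, and the groups overlapped. The difference (log2 fold change -0.91 ± 0.25 SE) did not pass the edgeR test (adjusted p = 0.226), and since a mutation of the coding sequence need not remove the transcript, this level does not check the labels. Females were at 25.4 to 40.8 CPM in Zmym2-/- and 84.0 to 125 in Zmym2+/+, with no overlap. Males were at 54.7 to 67.1 and 50.3 to 91.8 CPM. The genotype effect on Zmym2 did not pass the edgeR test for a difference between the sexes (1.39 ± 0.35, adjusted p = 0.0689). In the lines Zmym2 fell by 1.296 ± 0.102 on the log2 scale in Zmym2-/- mESCs and by 1.55 ± 0.07 in Zmym2-/- EBs, and passed the edgeR test in both. Markers of mESCs summed to 3090 to 3271 CPM in Zmym2-/- mESCs and 3437 to 3581 in NT mESCs, with 2 of 5 called lower (Esrrb and Nanog) and 0 higher. Markers of EBs (primed cells and germ layers) summed to 38.6 to 45.2 CPM in Zmym2-/- mESCs and 16.2 to 17.5 in NT mESCs. Of these, 2 of 5 were called higher there (Otx2 and Fgf5) and 0 lower. In EBs 1 mESC marker was called higher (Zfp42) and 1 EB marker lower (Otx2). In embryos the mESC markers summed to 71.5 to 429 CPM in Zmym2-/- and 61.3 to 161 in Zmym2+/+. Markers of the E8.5 embryo summed to 134 to 2104 CPM in Zmym2-/- embryos and 267 to 5121 in Zmym2+/+ embryos. The log2 difference in embryos was above 0 for 4 of 5 mESC markers, 5 of 5 EB markers and 1 of 6 E8.5 markers, and none was called. Whether the embryos differed in stage, or the lines in state, was not tested.

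In Zmym2-/- embryos 4 testis copies rose together by about the same amount, while 0 of the 4 parents passed the test, beside 0.524% of all genes called in either direction. Rbmxl2, Cyct, D1Pas1 and Tuba3a were among the 0.51% of 22729 genes called higher at an adjusted p under 0.05 by edgeR (4 of the 5 copies with counts). The fifth, Tuba3b, did not pass. Because the members were chosen with earlier results of these data known, these shares describe them and are no test of the set. The median log2 difference was 4.37 over the 5 copies and -0.26 over the 4 parents, beside 0.02 over all genes.

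D1Pas1 CPM was 12.1 at the lowest, 14.97 at the median and 19.2 at the highest in Zmym2-/- embryos, against 0.139, 0.511 and 1.91 in Zmym2+/+ embryos. The lowest mutant embryo stood above the highest control (so in 1.03% of all genes). The log2 fold change was 4.53 ± 0.55 (SE, n = 6 each, edgeR adjusted p = 0.00104). The antisense neighbour Gm37912 had 86 counts over the 6 Zmym2-/- embryos, with counts in every one, and 2 counts over the 6 Zmym2+/+ embryos, both in 1 embryo. Its ratio of rates was 36.2 (95% exact interval 9.72 to 304, counting error only) and it was called higher (edgeR adjusted p = 0.0149). The strand setting of the counting is not given in the sources used here, so reads of the 2 overlapping genes cannot be told apart where they overlap.

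Rbmxl2 had a lowest CPM of 8.94, a median of 15.3 and a highest of 20.7 in Zmym2-/- embryos, against 0.201, 0.627 and 1.13 in Zmym2+/+ embryos. The groups did not overlap. Its log2 fold change of 4.59 ± 0.49 was the highest of the copies (edgeR adjusted p = 0.000324). Cyct stayed the lowest of the 4 in reads, at 1.36, 2.94 and 5.62 CPM in Zmym2-/- embryos against 0.0727, 0.135 and 0.277 in Zmym2+/+ embryos (lowest, median and highest). No Zmym2+/+ embryo had more than 10 Cyct counts and no Zmym2-/- embryo fewer than 63. The log2 fold change was 4.27 ± 0.46 (edgeR adjusted p = 0.000324).

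Tuba3a had 6.62, 10.7 and 20.9 CPM in Zmym2-/- embryos against 0.124, 0.517 and 1.28 in Zmym2+/+ embryos (lowest, median and highest). All mutants stood above all controls, with a log2 fold change of 4.37 ± 0.56 (edgeR adjusted p = 0.00156). Tuba3b had 0, 0.0873 and 0.482 CPM in Zmym2-/- embryos against 0.0155, 0.131 and 1.19 in Zmym2+/+ embryos. These groups overlapped, and the difference did not pass (SE of the log2 difference 1.11, edgeR adjusted p = 0.749). Because Tuba3a and Tuba3b share long identical runs, reads that fit both may be missing from either count. The somatic alpha-tubulins Tuba1a, Tuba1b, Tuba1c, Tuba4a and Tuba8 had log2 differences of -0.43 to 0.74, and none passed (edgeR adjusted p = 0.398 to 0.861).

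The parents were far more abundant and did not move with their copies. Ddx3x had 610, 716 and 871 CPM in Zmym2-/- embryos against 542, 589 and 903 in Zmym2+/+ embryos (lowest, median and highest), with a log2 difference of 0.22 ± 0.14 (edgeR adjusted p = 0.561). Rbmx had 92.0, 97.0 and 113 CPM in Zmym2-/- embryos against 103, 111 and 118 in Zmym2+/+ embryos (log2 difference -0.15 ± 0.09, edgeR adjusted p = 0.537). Both pairs of groups overlapped. Cycs had 94.4, 126 and 153 CPM in Zmym2-/- embryos against 131, 176 and 250 in Zmym2+/+ embryos (log2 difference -0.50 ± 0.16, edgeR adjusted p = 0.305). Pgk1 had 552, 949 and 1370 CPM in Zmym2-/- embryos against 923, 1305 and 1564 in Zmym2+/+ embryos (log2 difference -0.38 ± 0.20, edgeR adjusted p = 0.456). The medians of Cycs and Pgk1 were thus lower in the mutants, with overlap and without passing the test. The Y-linked helicase gene Ddx3y did not pass either (log2 difference 0.07 ± 1.53, edgeR adjusted p = 0.991).

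**Figure D1:**
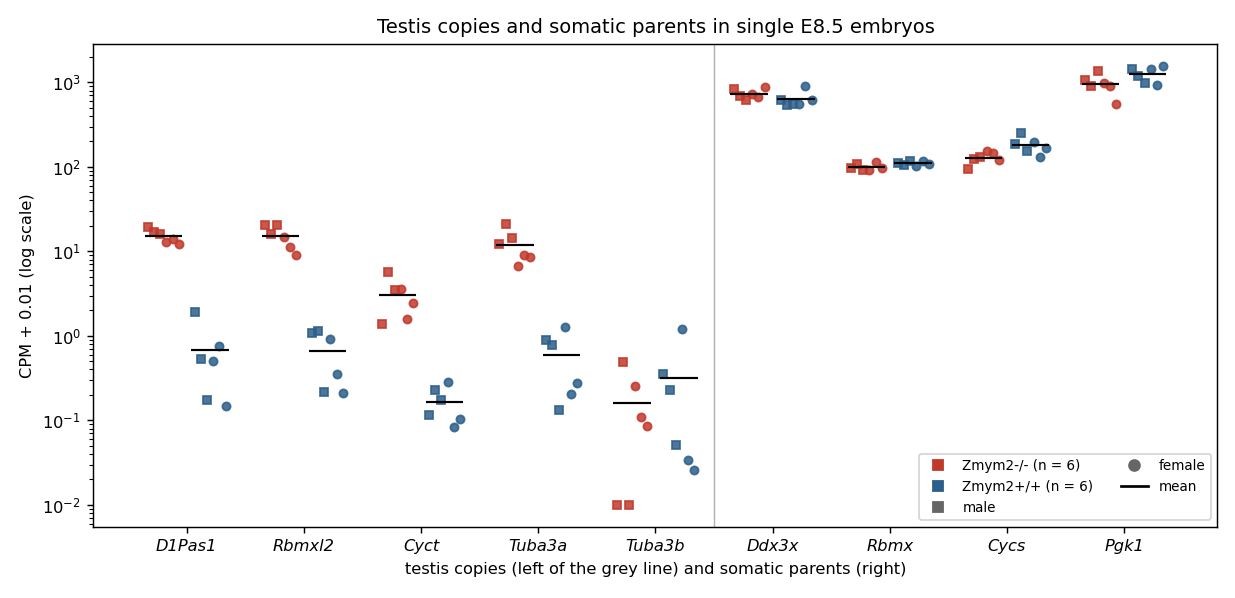
CPM with 0.01 added (log scale) of each gene in every embryo, Zmym2-/- in red and Zmym2+/+ in blue, squares for males, circles for females and a line for the mean of 6. D1Pas1, Rbmxl2, Cyct and Tuba3a separate by genotype with no overlap, while Tuba3b and the 4 parents overlap.

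Set against its own parent in the same library, D1Pas1, Rbmxl2 and Cyct each moved with the genotype. This ratio does not depend on how libraries are scaled. In RPKM, which corrects reads for gene length and library size, D1Pas1 stood at 2.27% to 4.31% of Ddx3x in Zmym2-/- embryos and at 0.0372% to 0.501% in Zmym2+/+ embryos. Rbmxl2 reached 27.3% to 64.8% of Rbmx in Zmym2-/- embryos, against 0.521% to 3.19% in Zmym2+/+ embryos. The length behind the Rbmx RPKM, from counts per RPKM, came to 206% of its GENCODE transcript, against 110% for Rbmxl2. Counts per base of the transcripts put Rbmxl2 lower, at 13.3% to 31.5% of Rbmx in Zmym2-/- embryos and 0.253% to 1.55% in Zmym2+/+ embryos. Cyct stood at 5.58% to 23.8% of Cycs in Zmym2-/- embryos and at 0.289% to 0.729% in Zmym2+/+ embryos. On raw counts the log2 ratio of copy to parent was higher in Zmym2-/- embryos by 4.77 for D1Pas1, 4.99 for Rbmxl2 and 4.63 for Cyct. Each difference had p = 0.00216 in a two-sided exact permutation test (6 against 6), the smallest p that design allows, and the same value after Benjamini-Hochberg adjustment over the 3 pairs. The ratios use the same counts as the tests above, so they are not separate evidence. These 3 copies remained the minor partner in every embryo, even where they rose.

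Sex, embryo names and other cell types were set beside these results. The genotype effect did not differ between males and females for any of the 9 members by edgeR (adjusted p = 0.345 to 0.984), and edgeR called 0.0% of genes for that interaction. At an unadjusted p under 0.05 edgeR gave 2334 genes with a higher and 2733 with a lower effect in males, and DESeq2 called 2584 at an adjusted p under 0.05. In males alone the 4 copies rose by 4.38 to 4.79 on the log2 scale (edgeR adjusted p = 0.0139 to 0.0266), and in females alone the values were 3.84 to 4.79 without passing (0.0506 to 0.139). Among Zmym2-/- embryos no member passed the test of males over females (edgeR adjusted p = 0.398 to 0.968). All 3 Zmym2-/- males share 1 name number that no other embryo carries, so sex and name number cannot be told apart among the mutants. Embryo names in the labels begin with H or J, and genotypes were uneven over them (4 J and 2 H Zmym2-/- embryos, 2 J and 4 H Zmym2+/+ embryos). With the letter in the fit all 4 copies were called (4.26 to 5.10). Some name numbers are shared between the genotypes. A fit with the number as a block kept only embryos with a shared number, so all 3 Zmym2-/- males were left out. The Zmym2-/- embryos kept were all female and the Zmym2+/+ embryos mostly male, so genotype and sex cannot be fully told apart in it. In that smaller fit none of the 4 was called (3.72 to 4.58, edgeR adjusted p = 0.153 to 0.201). In H embryos alone the values were 3.35 to 3.91 and none passed (edgeR adjusted p = 0.162 to 0.308), while in J embryos alone they were 4.64 to 6.71 and Cyct did not pass (0.0983).

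Of 7 primordial germ cell genes 0 were called, and their summed CPM was 64.4 to 246 in Zmym2-/- embryos and 60.3 to 263 in Zmym2+/+ embryos. Among them Dppa3, a maternal and germ cell factor, did not overlap between genotypes, at 1.75 to 4.31 CPM in Zmym2-/- embryos against 0.0485 to 1.13 in Zmym2+/+ embryos, without passing (edgeR adjusted p = 0.0536). The germ cell regulators Nanos3 and Prdm14 stayed at or under 0.226 CPM in all 12 embryos. Of 8 spermatid genes 3 had counts, with a sum of 0.0477 to 0.172 CPM in Zmym2-/- embryos and 0.0554 to 0.247 in Zmym2+/+ embryos, and the protamines Prm1 and Prm2 were not in the count table. Of 10 motile cilia genes 0 were called, but Foxj1, their master regulator, was at 9.81 and 82.5 CPM in Zmym2-/- embryos 5 and 6 and at 0.914 to 1.94 in the other 10. Without those 2 embryos the 4 copies were still called (4.495 to 4.82). In whole embryos, more cells with a transcript and more transcript per cell cannot be told apart.

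Across all 12 embryos the genes whose log2 CPM followed each copy most closely were sought among 13829 genes with a mean of at least 1 CPM. They were Tcf24 for D1Pas1 (Pearson's r = 0.989), Rnf17 for Rbmxl2 (0.990), Stra8 for Cyct (0.969) and Rbmxl2 for Tuba3a (0.982). Rnf17 encodes a germ cell Tudor protein and Stra8 a factor needed for entry into meiosis. These values describe a pattern that includes the step between the genotypes.

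In mESCs 4 of the 6 copies were already read in the control lines, all but Tuba3b and Pgk2, and 3 of the 5 with counts rose in Zmym2-/- lines, beside 10.3% of 20159 genes called higher by edgeR. D1Pas1 was at 59.9 and 47.8 CPM in Zmym2-/- mESCs against 13.7 and 9.31 in NT mESCs, a log2 fold change of 2.22 ± 0.17 (edgeR adjusted p = 2.5e-06). Tuba3a was at 24.7 and 29.6 CPM in Zmym2-/- mESCs against 10.46 and 8.95 in NT mESCs, a log2 fold change of 1.48 ± 0.15 (1.8e-05). Cyct rose less, at 14.9 and 15.4 CPM in Zmym2-/- mESCs against 9.09 and 11.3 in NT mESCs (0.58 ± 0.15, edgeR adjusted p = 0.0191), and was not called when NT mESC library 1 was left out (0.43, adjusted p = 0.190). These 3 genes did not overlap between the genotypes, which held for 30.8% of all genes with 2 libraries a group (26.2% in EBs).

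Rbmxl2 differed from the other copies. It was at 173 and 185 CPM in Zmym2-/- mESCs against 182 and 150 in NT mESCs. The groups overlapped, and the log2 difference of 0.11 ± 0.10 did not pass (edgeR adjusted p = 0.488). Its parent Rbmx was at 11.6 and 11.3 CPM in Zmym2-/- mESCs against 8.80 and 9.502 in NT mESCs (0.32 ± 0.15, edgeR adjusted p = 0.169). Per length, Rbmxl2 was read at 43.8 to 48.4 times Rbmx in Zmym2-/- mESCs and at 46.6 to 60.8 times in NT mESCs, the reverse of the order in embryos. By transcript length this was 21.3 to 23.6 times in Zmym2-/- mESCs and 22.7 to 29.6 times in NT mESCs. In RPKM, Rbmx was at 2.05 to 3.58 in the lines and at 21.1 to 28.1 in the embryos, and its retrocopy Rbmxl1 at 112 to 156 in the lines and 81.8 to 138 in the embryos. The embryo and line tables were normalised separately, and no test was made across them. The cause of the low Rbmx values in the lines was not tested.

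Among the parents in mESCs, Ddx3x was called higher, at 546 and 496 CPM in Zmym2-/- mESCs against 452 and 429 in NT mESCs (0.24 ± 0.08, edgeR adjusted p = 0.0429). That call was lost under DESeq2 (adjusted p = 0.0505) and when any 1 of 3 of the 4 libraries was left out (NT 1, NT 2 or Zmym2-/- 1, adjusted p = 0.0625 to 0.233). Cycs was at 72.5 and 63.5 CPM in Zmym2-/- mESCs against 74.7 and 85.8 in NT mESCs (-0.24 ± 0.10, edgeR adjusted p = 0.127). Pgk1 was at 898 and 785 CPM in Zmym2-/- mESCs against 915 and 1116 in NT mESCs (-0.27 ± 0.10, edgeR adjusted p = 0.0641), and it was called lower without NT library 1 or without Zmym2-/- library 1 (adjusted p = 0.00236 and 0.0151). Tuba3b had 4 and 12 counts in Zmym2-/- mESCs against 4 and 1 in NT mESCs, too few to show a difference. The Y-linked Ddx3y had 32 and 13 counts in the Zmym2-/- mESCs and 1 and 0 in the NT mESCs. It was called higher (5.47 ± 0.99, edgeR adjusted p = 0.00185). In EBs it had 25 and 15 counts in Zmym2-/- and 0 and 0 in NT, and was also called higher (7.18 ± 1.28, edgeR adjusted p = 0.006). Each male embryo had 1706 to 3868 counts and each female embryo 0 to 69. The Zmym2-/- mESC counts thus lay within the range of embryos labelled female. Whether the lines differ in sex chromosomes was not tested.

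In EBs 4 of the 5 copies with counts were called higher in Zmym2-/- lines, beside 4.62% of 20142 genes. D1Pas1 was at 17.1 and 15.1 CPM in Zmym2-/- EBs against 3.25 and 3.02 in NT EBs (2.36 ± 0.14, edgeR adjusted p = 1.6e-06). Tuba3a was at 8.51 and 7.61 CPM in Zmym2-/- EBs against 2.76 and 2.64 in NT EBs (1.58 ± 0.17, edgeR adjusted p = 0.000127). Both held when any 1 library was left out. Cyct was at 4.14 and 5.02 CPM in Zmym2-/- EBs against 2.52 and 2.67 in NT EBs (0.81 ± 0.20, edgeR adjusted p = 0.0288). Rbmxl2 was at 62.3 and 49.8 CPM in Zmym2-/- EBs against 40.5 and 46.3 in NT EBs (0.37 ± 0.10, edgeR adjusted p = 0.0497). The calls of Cyct and Rbmxl2 rested on single libraries. Cyct was lost without NT 1, NT 2 or Zmym2-/- 2 (adjusted p = 0.0648 to 0.0874), and Rbmxl2 without NT 1 (0.27, adjusted p = 0.129) or Zmym2-/- 1 (0.20, adjusted p = 0.287).

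Pgk1 fell in Zmym2-/- EBs, to 493.3 and 477.3 CPM, against 657 and 687 in NT EBs (-0.47 ± 0.05, edgeR adjusted p = 6.5e-05), beside 2.77% of genes called lower. It was the one parent called there and held in each leave-one-out fit. Ddx3x was at 649 and 655 CPM in Zmym2-/- EBs against 665 and 753 in NT EBs (-0.12 ± 0.06, edgeR adjusted p = 0.244), and it was called lower without NT EB library 1 (-0.21, adjusted p = 0.0249). Cycs was at 88.7 and 88.1 CPM in Zmym2-/- EBs against 93.6 and 94.4 in NT EBs (-0.09 ± 0.06, edgeR adjusted p = 0.437). Rbmx, at 11.9 to 15.3 CPM in Zmym2-/- EBs and 12.4 to 13.6 in NT EBs, overlapped (0.06 ± 0.13, edgeR adjusted p = 0.871). Tuba3b had 8 and 4 counts in Zmym2-/- EBs against 3 and 1 in NT EBs. Pgk1 did not move alone. Of 14 other genes of glycolysis, 10 fell in Zmym2-/- EBs and 0 rose, with a median log2 difference of -0.24 beside 0.01 over all genes. They included Tpi1 (-0.47 ± 0.06), Aldoa (-0.33 ± 0.04) and Ldha (-0.24 ± 0.05), which encode triose phosphate isomerase, an aldolase and a lactate dehydrogenase, whereas Hk2, a hexokinase gene, did not pass (-0.07 ± 0.07). In mESCs 5 of the 14 fell, beside 8.94% of genes called lower there, and 1 rose, and in embryos 0 passed.

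**Figure D2:**
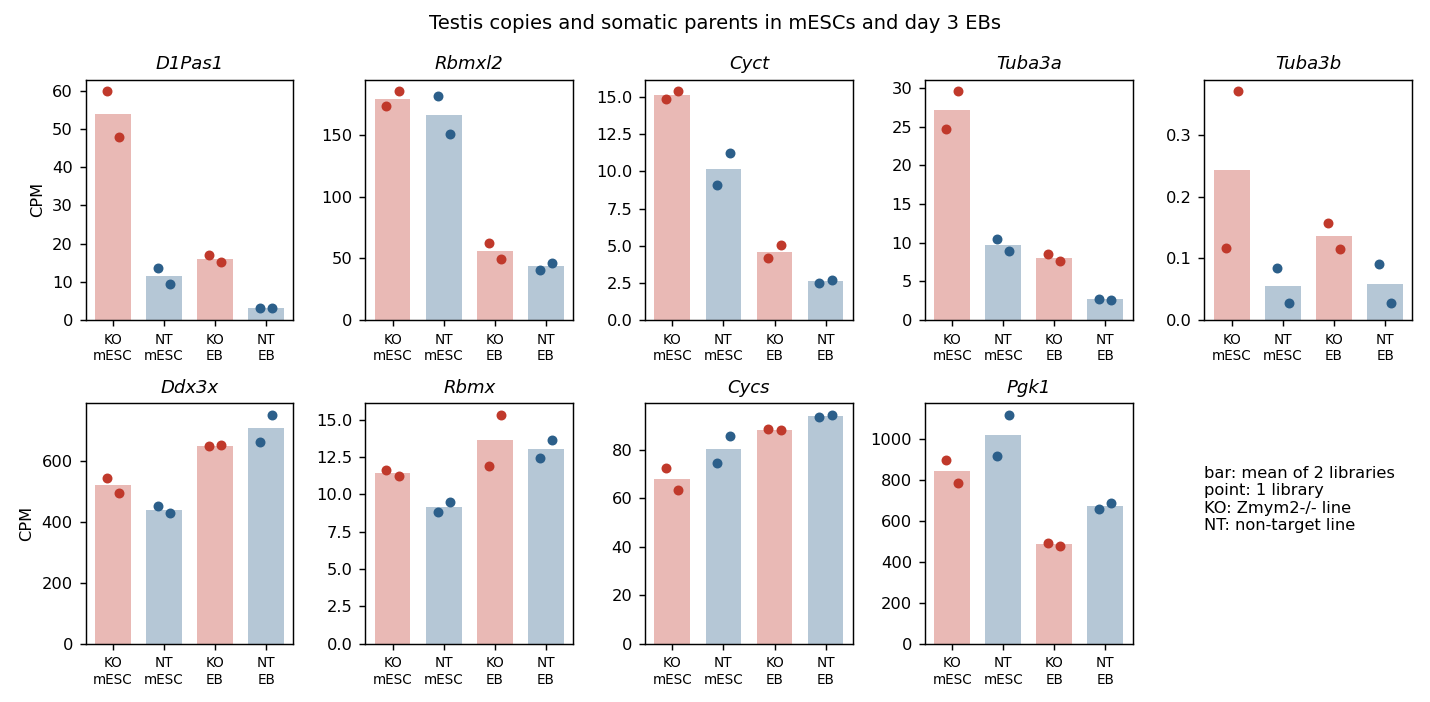
CPM of each gene in mESCs and EBs, 1 point per library and bars for the mean of 2, Zmym2-/- (KO) left of non-target (NT) at each stage. D1Pas1 and Tuba3a are higher in Zmym2-/- at both stages, Rbmxl2 overlaps in mESCs, and Pgk1 is lower in Zmym2-/- EBs.

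**Figure D3:**
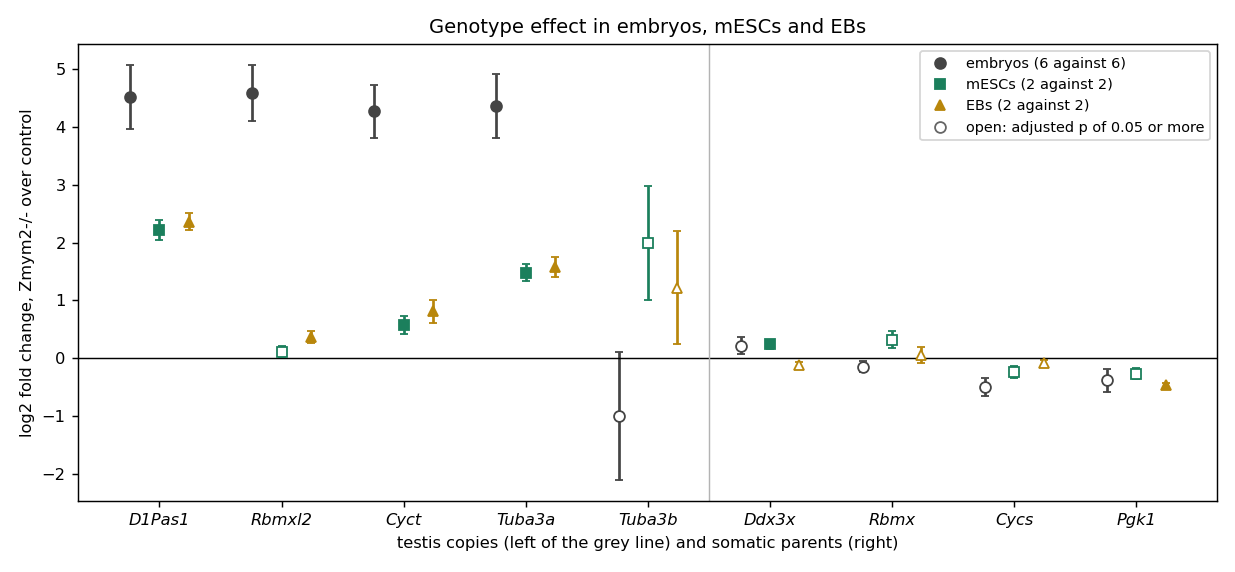
Log2 fold change of Zmym2-/- over control for each gene in embryos, mESCs and EBs, with bars of 1 standard error and open symbols where the edgeR adjusted p was 0.05 or more. The 4 copies called in embryos lie at 4.27 to 4.59 there and between 0.11 and 2.36 in the lines. The parents lie between -0.50 and 0.32, with Ddx3x called higher in mESCs and Pgk1 lower in EBs.

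The ratio of copy to parent in the lines followed the same genes, with no test, since an exact permutation test of 2 against 2 libraries cannot reach a p under 0.05. D1Pas1 stood at 15.8% to 18.03% of Ddx3x RPKM in Zmym2-/- mESCs against 3.56% to 4.97% in NT mESCs, and at 3.78% to 4.33% in Zmym2-/- EBs against 0.659% to 0.803% in NT EBs. Cyct stood at 107% to 126% of Cycs in Zmym2-/- mESCs against 63.3% to 68.2% in NT mESCs, and at 24.3% to 29.6% in Zmym2-/- EBs against 14.0% to 14.7% in NT EBs. Cyct was thus read above its parent in RPKM in Zmym2-/- mESCs alone, though by transcript length it stood at 98.0% to 116% there. Rbmxl2 stood at 9.56 to 15.4 times Rbmx RPKM in Zmym2-/- EBs and 9.58 to 9.99 times in NT EBs, or 4.65 to 7.48 and 4.66 to 4.86 times by transcript length.

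**Figure D4:**
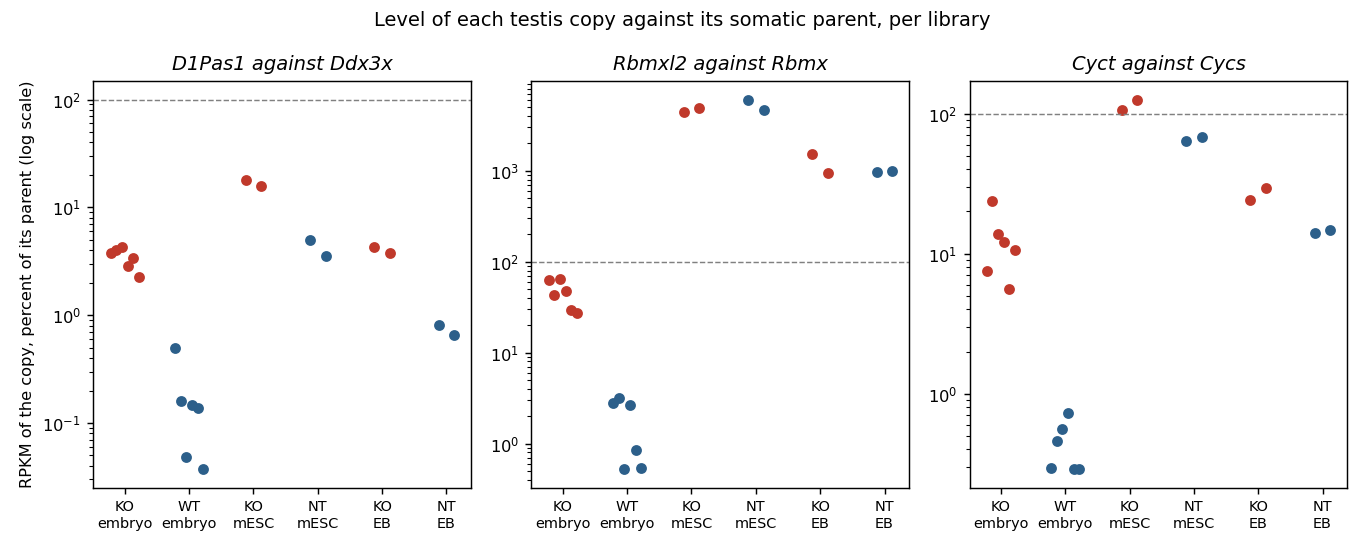
RPKM of D1Pas1, Rbmxl2 and Cyct as a percentage of the parent's RPKM (log scale), 1 point per library, Zmym2-/- (KO) in red and controls in blue, with a dashed line where both are equal. In embryos every Zmym2-/- point lies above every control point, and in mESCs and EBs Rbmxl2 lies above the line in both genotypes.

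Pgk2 was listed at 0 RPKM in 19 of the 20 libraries and at 0.058 in Zmym2-/- mESC library 2. No fold can be given for it. Among the copies it is also the one without the E2F-type letters before its start, while Tuba3b has them and was not called in embryos. Whether the letters bear on these levels was not tested.

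From mESCs to EBs 4 of the copies fell in both genotypes. In Zmym2-/- lines the log2 fold change of EBs over mESCs was -1.79 for D1Pas1, -1.72 for Rbmxl2, -1.78 for Cyct and -1.80 for Tuba3a, beside 22.1% of 18926 genes called lower by edgeR (23.1% called higher). In NT lines it was -1.93 for D1Pas1, -1.99 for Rbmxl2, -2.02 for Cyct and -1.90 for Tuba3a, beside 23.6% called lower (23.0% higher). All 8 had an edgeR adjusted p of at most 4.4e-06. Tuba3b did not pass in Zmym2-/- lines (-0.84 ± 0.78, edgeR adjusted p = 0.422) or in NT lines (-0.07 ± 1.10, edgeR adjusted p = 0.970). The difference between the genotypes in this step was 0.10 to 0.26 on the log2 scale for these copies and did not pass (edgeR adjusted p = 0.424 to 0.852), nor did it for any other member, while 5.25% of all genes were called.

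The parents did not fall together. Ddx3x rose by 0.27 ± 0.07 in Zmym2-/- lines and by 0.64 ± 0.07 in NT lines, and that difference of -0.36 ± 0.10 fell just outside the threshold (edgeR adjusted p = 0.0536). It was called under 5 of 13 alternatives (adjusted p = 0.00571 to 0.229). Rbmx rose by 0.46 ± 0.14 in NT lines and did not pass in Zmym2-/- lines (0.20 ± 0.14), and Cycs rose by 0.33 ± 0.08 in Zmym2-/- lines and did not pass in NT lines (0.18 ± 0.08), without passing the test of the difference. Pgk1 fell in both, at -0.84 ± 0.09 in Zmym2-/- lines and -0.64 ± 0.09 in NT lines.

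**Figure D5:**
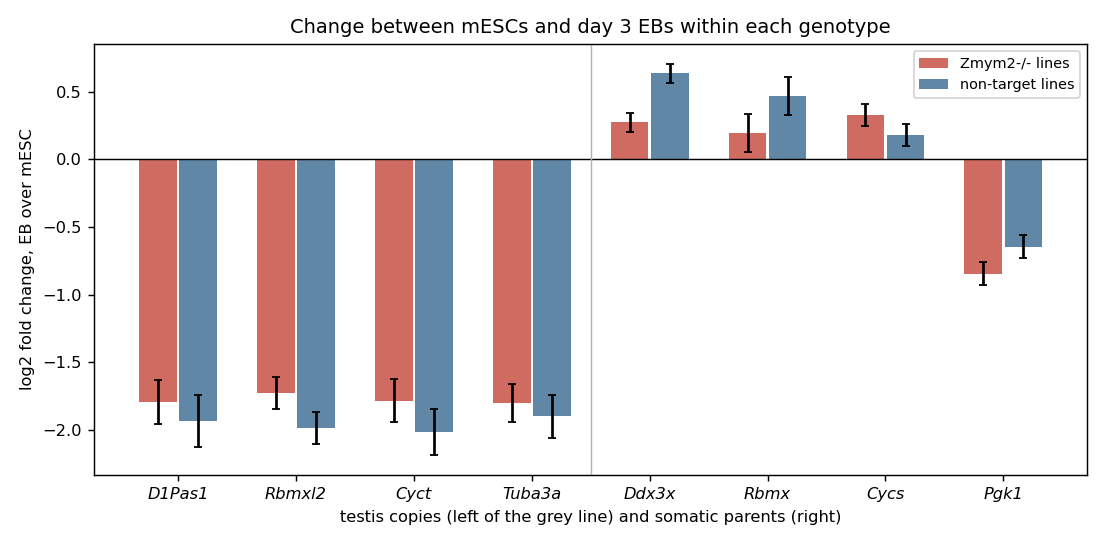
Log2 fold change of EBs over mESCs in Zmym2-/- (red) and non-target (blue) lines from 1 joint fit, with bars of 1 standard error. The 4 copies lie between -2.02 and -1.72 in both genotypes, whereas Ddx3x, Rbmx and Cycs lie above 0 and Pgk1 below.

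Other testis copies of somatic genes showed how far the pattern reached. In embryos 21 of 28 listed copies had counts and 0 were called by edgeR (0 of their 27 parents too), with a median log2 difference of 0.51. The 4 with the smallest p were Slc25a31, a testis mitochondrial ADP/ATP carrier (2.08 CPM at the median of Zmym2-/- embryos and 0.623 of Zmym2+/+ embryos, 1.59 ± 0.37, adjusted p = 0.106), Utp14b (0.64 ± 0.20), Ldhc, the testis lactate dehydrogenase (1.15 ± 0.40), and Tktl2 (2.66 ± 0.95), the last 3 with an adjusted p of 0.286 to 0.351. In Zmym2-/- mESCs 7 of 19 rose and 1 fell, beside 10.3% and 8.94% of all genes, and in Zmym2-/- EBs 6 of 20 rose and 0 fell, beside 4.62% and 2.77%. Of their 27 parents 1 rose and 2 fell in Zmym2-/- mESCs, and 7 fell and 0 rose in Zmym2-/- EBs (Aldoa, Gapdh, Ldha, Pdha1, Cox8a, Cox6b1 and Prps1). Aldoa, Gapdh and Ldha were already counted among the 10 glycolysis genes that fell in Zmym2-/- EBs. Among the other testis copies, Rpl10l, a copy of the ribosomal protein gene Rpl10, was chosen after its values were seen. It was at 57.6 to 58.2 CPM in Zmym2-/- mESCs against 18.3 to 22.1 in NT mESCs (1.52 ± 0.12), and at 21.9 to 25.4 CPM in Zmym2-/- EBs against 7.68 to 8.25 in NT EBs (1.57 ± 0.12). Of 11 genes whose proteins work with cytochrome c, 4 fell in Zmym2-/- mESCs, beside 8.94% of all genes, and 0 passed in EBs or embryos.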

How the data were processed

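Poly(A) RNA was read as 100-nt pairs (NEB stranded kit), trimmed with Trimmomatic (0.34), aligned to mm10 with STAR (2.7.8a), with duplicates marked by Picard (2.9.0). The counts deposited by the authors are raw whole reads per gene from HTSeq-count, whose version, annotation and strand setting are not given in the sources used here. RPKM were made by the authors with StringTie (1.3.5), and for a given pair were in a nearly fixed proportion to the counts, so they are no second measurement. The 20 columns of normalized values per sample were not used.

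Counts were tested in R (4.3.3) with edgeR (4.0.16): at least 10 counts summed per gene, TMM scaling, the two-sided quasi-likelihood test and Benjamini-Hochberg adjustment over all genes, called under 0.05. SEs were taken as |log2 fold change| divided by the root of F, and CPM used TMM-scaled totals. Copy to parent ratios had 0.5 added to each count. Alternatives were DESeq2 (1.42.0), its size factors, a filter of 1 CPM, no filter, sex, name letter or name number in the fit, a replicate block, subsets and leave-one-out. Models are GENCODE, promoters RefSeq. The fit was tested on simulated data. Members and lists were chosen with earlier results of these data known. All members were named, and of each other list up to 4 genes of smallest p in embryos, with exceptions stated. Where sources name no separate clones, p-values measure only the spread between samples, which may be technical.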

Additional observations from a re-analysis of the deposited data

Results flagged for a closer look

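Of 18 groups of 6 embryos tested for a sample far from the rest, 3 held one, where chance alone gives about 1 in 20. D1Pas1 stood at 1.911 CPM in Zmym2+/+ embryo 1, with the other 5 controls at 0.139 to 0.751, and still far under the lowest Zmym2-/- embryo. Without that embryo the D1Pas1 difference remained called. Tuba3b stood at 1.192 CPM in Zmym2+/+ embryo 4, the highest of all 12 embryos, and Ddx3x at 902.7 CPM in Zmym2+/+ embryo 5, above every Zmym2-/- embryo. In data outside the count tables, Pgk2 was listed at 0.058 RPKM in Zmym2-/- mESC library 2 and at 0 in the other 19 libraries.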

How the results depend on the processing

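Of 22729 genes in embryos edgeR called 119. The number was 372 with DESeq2, 69 with a filter of 1 CPM, 77 without Zmym2-/- embryos 5 and 6, 384 in males alone, 15 in females alone, 1 in H embryos alone, 47 in J embryos alone, 1 with the name number as a block, and 80 to 152 with 1 embryo left out. The 4 testis copies stayed called in each leave-one-out fit and fell to 0 called in H embryos alone, in females alone and with the name number as a block (3.72 to 4.58 on the log2 scale, adjusted p = 0.153 to 0.201), fits with fewer samples or more terms. Copy to parent ratios within subsets cannot reach 0.05 in the exact permutation test (p = 0.1 by sex, 0.133 by letter): D1Pas1 4.64 in males, 4.91 in females, 3.94 in H and 6.28 in J, Rbmxl2 5.03, 4.94, 4.11 and 6.40, and Cyct 4.89, 4.37, 4.19 and 4.88. Leaving out 1 library gave 2351 to 3858 genes in mESCs (3871 with all), 1198 to 1849 in EBs (1489), 2 to 3 copies in EBs (4, and 2 without NT library 1), 404 to 1221 for the stage interaction (993) and 0 to 1653 for the sex interaction (0, with DESeq2 2584).

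Replicate numbers did not pair the genotypes: same-numbered embryos correlated at -0.448 to 0.442, mESCs at -0.0255 and EBs at -0.0277. Across the stages same-numbered libraries correlated at 0.130 in NT and 0.392 in Zmym2-/- lines. These 2 pairs are too few to tell whether the numbers mark the same clone at both stages, and the main stage test did not use them. As a replicate block the numbers gave 49 genes in embryos, 2325 for the stage interaction and 1581 for the sex interaction, with all 4 copies still called in embryos. Directions turned only for genes that were not called. Tuba3b in embryos was at 0.091 with the name letter, 2.24 in J embryos and -1.90 to 0.25 with 1 embryo left out. With 1 library left out, Rbmxl2 in mESCs ran from -0.021 to 0.25 and Rbmx in EBs from -0.13 to 0.23, and the stage interaction ran from -0.17 to 0.39 for D1Pas1, -0.030 to 0.24 for Tuba3a and -1.78 to 0.28 for Tuba3b. The sex interaction ran from -0.084 to 0.073 for Rbmx (0.0016 with DESeq2 or its size factors), -0.81 to 0.40 for Rbmxl2, -1.07 to 0.86 for D1Pas1, -0.44 to 0.66 for Cyct, -0.35 to 1.33 for Tuba3a, -0.052 to 0.38 for Ddx3x and -4.78 to 1.86 for Tuba3b (-1.38 with the block). EB calls were lost for Cyct under DESeq2 (adjusted p = 0.0551) and for Rbmxl2 with the 1 CPM filter (0.0707). The cause was not tested. Low counts limit Tuba3b and Pgk2.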
